A study of Mus musculus with 16 samples.

Results

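Hedgehog signalling was examined through 8 pathway genes, Shh, Ptch1, Hhip, Smo, Sufu, Gli1, Gli2 and Gli3, on 16 arrays of sorted mouse skin epithelial cells, 1 array for each of 16 groups. A member was any probe whose gene name in the scanner files was one of these symbols, which gave 13 probes, and each gene was read from its probe with the highest mean level over the 16 arrays. Of the 8 genes, 7 passed the filter on dim probes and were tested among 31527 genes, and Shh did not. Hair follicle stem cells (HFSC) had been sorted as CD34-high, ITGA6-high, Sca1-negative cells, in states that the labels call aHFSC and tHFSC without spelling the prefixes out. Interfollicular epidermis cells (IFE) had been sorted as ITGA6-high, Sca1-high cells.

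The HFSC came from 6 conditions, each with an aHFSC and a tHFSC array. Young mice of 12 weeks carried Col17a1cKO (Col17a1 flox/flox, K15crePR), aPKCcKO (aPKCλ flox/flox, K15crePR) or the hCOL17A1 transgene (hCOL17A1 tg), or were the control, labelled WT (C57BL/6). Aged mice of 25 to 26 months carried hCOL17A1 or were WT. Both knockouts, in which the K15 promoter drives an RU486-dependent Cre, and the young control were given RU486 at 2.5 mg per mouse for 5 days from 8 weeks of age, whereas the labels of the other groups mention no RU486. Plucking 3 days before is stated for the aHFSC of the control and of Col17a1cKO only. The 4 IFE arrays were young hCOL17A1, aged hCOL17A1, aged WT and young WT. The labels do not say whether an array held 1 mouse or a pool, nor which promoter drives the transgene.

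In the absence of a Hedgehog ligand, the receptor Ptch1 keeps the transducer Smo inactive, and Sufu holds the Gli transcription factors in check. Ligand binding frees Smo, which acts at the primary cilium, and Gli2 then works mainly as an activator while less Gli3 is processed into a repressor. Gli1, Ptch1 and Hhip are themselves transcribed in response, so their RNA is a usual readout of the pathway, and Ptch1 and Hhip bind ligand and dampen it. In skin, Shh made by the growing follicle drives the follicle's growth, and Gli1-positive cells are known at the edges of the bulge, where HFSC lie.

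Several probes are shown because the readings below turn on them. Probe positions are those of the array design, in mm9, and 30 bases of each 60-base probe are printed from 5′ to 3′. Capitals mark, in Gli1 probe 1, the 23 bases that a probe of the neighbouring gene Arhgap9 holds as its reverse complement. In Gli1 probe 2 they mark GTAAG, letters that often open an intron and that 3.94% of all 55681 probes contain. In the Smo probe they mark a run of CA repeats 12 bases long, a length that 61 of the probes reach. The stretches of the Ptch1 probes have no marked bases.
Gli1 probe 1: gaaagaaCAAACTTTAATAATGACACAGTT
Gli1 probe 2: gccaaactcaagGTAAGaaacatccagaga
Ptch1 probe 1: catttggatgttttaatttgtaaaagaaaa
Ptch1 probe 2: ttcatgtcaggtgtgagaggagggactcaa
Smo probe 1: agcacacacagaCACACACACACAtacact

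Gli1 probe 1 lies at chr10:126766967-126767026 and is annotated by a RefSeq transcript, and Gli1 probe 2 lies at chr10:126775021-126775080 and is annotated by a GenBank mRNA. Both are on the minus strand. The Arhgap9 probe lies at chr10:126766930-126766989 on the plus strand, and the RefSeq table places Arhgap9 and Gli1 next to each other. Ptch1 probe 1 lies at chr13:63610298-63610357 and probe 2 at chr13:63612879-63612938, on the minus strand. The probes used for the other members lie at chr8:82494280-82494339 (Hhip, minus strand), chr6:29710919-29710978 (Smo, plus strand), chr19:46529259-46529318 (Sufu, plus strand), chr1:120731255-120731314 (Gli2, minus strand), chr13:15821502-15821561 (Gli3, plus strand) and chr5:28783983-28784042 (Shh, minus strand). Which exon or untranslated region each probe falls in was not analysed here. RefSeq promoter windows of 300 bases (GRCm38.p6) were at hand for 6 members, Gli2, Smo, Hhip, Gli3, Ptch1 and Sufu. None of the 6 windows held the Gli motif GACCACCCA or its reverse complement TGGGTGGTC, which 83 of 32851 promoter windows (0.253%) did. At so low a share, none in 6 is the usual outcome for any windows, so it does not bear on whether these genes have Gli sites.

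All levels are log2 signals relative to the 75th percentile of the array, and differences are on the same log2 scale. As a check of the sort, Cd34 read 3.54, 4.08 and 5.11 (lowest, median and highest) in aHFSC and 5.48, 5.75 and 6.44 in tHFSC, against -5.08, 0.32, -3.86 and -6.45 in aged hCOL17A1, young hCOL17A1, aged WT and young WT IFE. Of the 9 bulge markers, a list that holds Cd34, 8 were above 0 in each comparison with IFE. At an adjusted p under 0.05 (limma), 7 of 9 were called higher in aHFSC and 8 of 9 in tHFSC. Of all genes, 1.64% and 2.11% were called higher. Of the deleted genes, Prkci (the gene of aPKCλ) read 3.28 and 3.44 in aPKCcKO aHFSC and tHFSC, against 4.37 and 4.25 in control aHFSC and tHFSC. Col17a1 read 5.97 and 6.75 in Col17a1cKO aHFSC and tHFSC, against 6.17 and 7.02 in control aHFSC and tHFSC, and the labels do not give which part of the gene was deleted. Some arrays stood apart. The aged hCOL17A1 aHFSC and tHFSC arrays had 59.1% and 68.8% of probes well above background, against 73.8% to 79.8% on the other 14. The young hCOL17A1 IFE array correlated at 0.919 to 0.926 with the other IFE arrays, which correlated at 0.975 to 0.979 with each other. The young control tHFSC file lacked 9264 probes, among them the Hhip probe, whose values were taken from the deposited table. Slide 1 held the 8 young HFSC arrays and slide 2 the aged HFSC and IFE arrays.

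**Figure D1:**
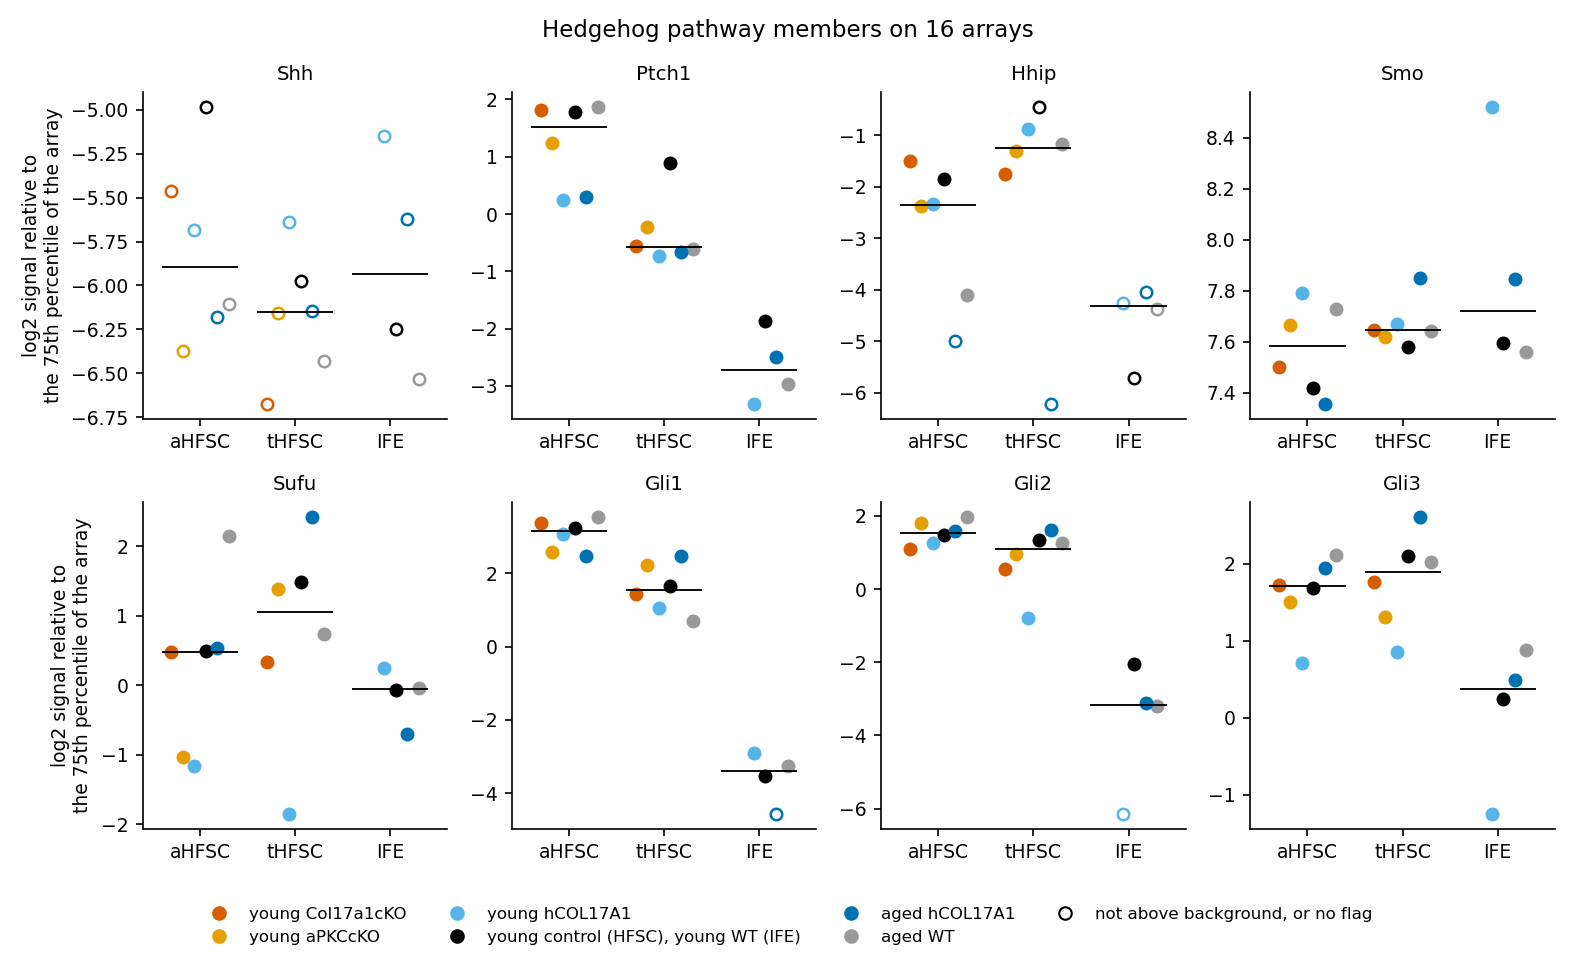
Level of each of the 8 genes, by the probe used, on the 16 arrays, as log2 signal relative to the 75th percentile of the array (vertical axis, with its own range in each panel) for aHFSC, tHFSC and IFE. Each point is 1 array, open where the probe was not well above background or had no flag, and the line is the median. Gli1, Gli2 and Ptch1 do not overlap between HFSC and IFE by the probe used, while the other probes of Gli1 and Ptch1 do. The share of all genes without overlap is not given. Shh is open throughout, and Smo spans 7.36 to 8.52.

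The ligand Shh was at background in every group. Its probe is printed 10 times on each array, and 8 of the 160 spots were well above background. Of these, 4 were on the young control aHFSC array, 2 on young hCOL17A1 IFE, 1 on aged hCOL17A1 IFE and 1 on aged WT tHFSC, and on no array did most of the spots pass. Mean levels ran from -6.37 to -4.98 in aHFSC, from -6.67 to -5.64 in tHFSC and from -6.53 to -5.15 in IFE, values that carry no order. Among the 7 other genes of ligand production and release, Ihh, a related ligand, was above background on all 16 arrays, with medians of -2.15 in aHFSC, -1.87 in tHFSC and -2.15 in IFE. None of these 7 passed the test in aHFSC against IFE, tHFSC against IFE or aHFSC against tHFSC.

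Between HFSC and IFE, the Gli transcription factors and Ptch1 were higher in HFSC by the probe used, and Smo and Sufu did not pass the test. Read from its other probe, Gli1 did not pass in either comparison, and Ptch1 passed in aHFSC only, as given below. The signal of Gli1 probe 1 cannot be told apart from that of Arhgap9, also as given below. In aHFSC against IFE, 4 of 7 tested members were called at an adjusted p under 0.05 (limma, Benjamini-Hochberg), Gli1, Gli2, Gli3 and Ptch1, all higher, where 4.32% of all 31527 genes were called, 1.64% higher and 2.68% lower in aHFSC. In tHFSC against IFE the same 4 of 7 were called, all higher, where 6.44% of all genes were called, 2.11% higher and 4.33% lower in tHFSC. Hhip, which the fit also passed there, is not counted with them, because no IFE array had the probe used above background. The median difference over the 7 members, Hhip included, was 1.59 in aHFSC against IFE and 2.29 in tHFSC against IFE, against -0.14 and -0.05 over all genes. Both comparisons use the same 4 IFE arrays. A pair is an IFE array and the HFSC array of the same age and genotype, with young WT IFE set beside the young control HFSC. The young pairs span both slides, so cell type and slide cannot be told apart in them. In the control pair RU486 cannot be told apart from cell type either, since no RU486 is stated for IFE. With 1 array in a group, the p-values measure scatter around an additive fit of condition and cell state and not variation between animals. In RNA from sorted cells, fewer cells of a type and less RNA per cell cannot be told apart.

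Gli1, the transcription factor that is itself induced by the pathway, showed the widest gap among the members by the probe used. Its probe 1 read 2.46, 3.15 and 3.53 (lowest, median and highest) in aHFSC and 0.69, 1.54 and 2.47 in tHFSC. In IFE it read -4.56 (aged hCOL17A1, not well above background), -2.91 (young hCOL17A1), -3.26 (aged WT) and -3.54 (young WT). Every HFSC array lay above every IFE array. The share of all genes that separate in this way is not given, here and for Gli2 and Ptch1 below. The fitted difference was 6.56 ± 0.48 (SE) in aHFSC against IFE (limma, adjusted p = 0.000242, higher in 4 of 4 pairs) and 5.11 ± 0.48 in tHFSC against IFE (limma, adjusted p = 0.000778, 4 of 4 pairs). The size depends on the background correction: with normexp the differences were 4.44 and 3.02, both still called.

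The other Gli1 probe gave another reading. Gli1 probe 2 read -2.41, -1.37 and -0.19 in aHFSC and -2.17, -2.08 and -0.53 in tHFSC, against -1.99, -2.45, -2.61 and -2.48 in aged hCOL17A1, young hCOL17A1, aged WT and young WT IFE. It was well above background on all 16 arrays, and its groups overlapped. Its difference was 1.06 ± 0.51 in aHFSC against IFE and 0.53 ± 0.51 in tHFSC against IFE, and neither passed (limma over 49792 probes, adjusted p = 0.35 and 0.661), where 3.25% and 4.9% of all probes did. Without the aged hCOL17A1 aHFSC array the first was called, at 1.67 (limma, adjusted p = 0.0309).

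The Arhgap9 probe, which shares 23 bases with Gli1 probe 1 on the opposite strand, tracked it closely. It read 0.80, 1.75 and 2.26 in aHFSC and -0.47, 0.14 and 1.37 in tHFSC, against -5.21, -2.65, -4.38 and -3.77 in aged hCOL17A1, young hCOL17A1, aged WT and young WT IFE. Arhgap9 was the nearest of 20184 genes with an official symbol to Gli1 probe 1, with a root mean square difference of 0.505 between centred levels over the 16 arrays, where Gli1 itself had an SD of 2.68. The next 4 were Crispld1 (0.817), Fstl1 (0.859), Fbln1 (0.881) and Tcf7l1 (0.936), and Gli2 and Ptch1 stood at ranks 25 and 44. Arhgap9 has 1 probe on the array, and whether the labelled cDNA keeps its strand is not given in the sources used here, so the signals of the overlapping ends of the 2 genes cannot be told apart.

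**Figure D2:**
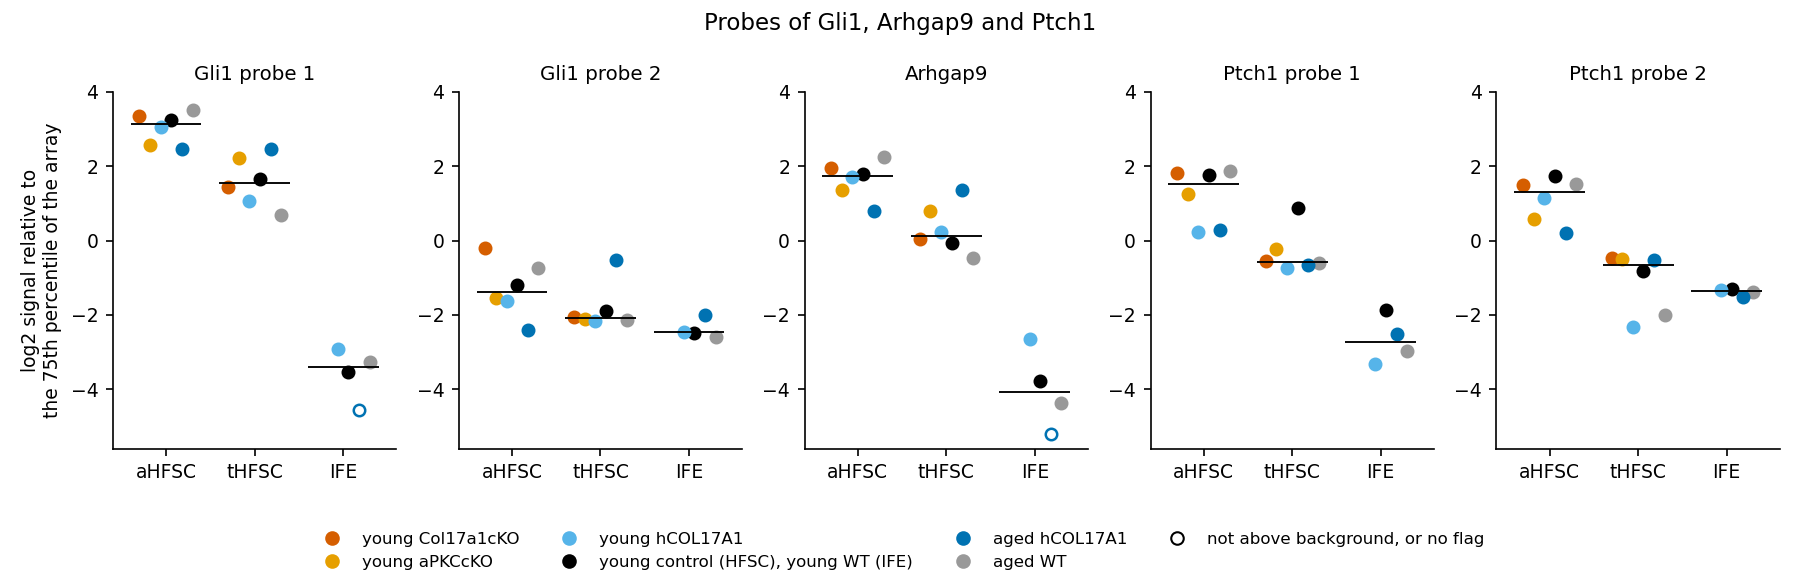
Level of both Gli1 probes, of the Arhgap9 probe that overlaps Gli1 probe 1, and of both Ptch1 probes, as log2 signal relative to the 75th percentile of the array, in aHFSC, tHFSC and IFE. Each point is 1 array, open where not well above background, and lines are medians. Gli1 probe 1 and Arhgap9 have medians of -3.40 and -4.07 in IFE, while the medians of Gli1 probe 2 lie between -2.46 and -1.37.

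Gli2, the main activator, read 1.09, 1.53 and 1.97 in aHFSC and -0.78, 1.10 and 1.61 in tHFSC. In IFE it read -3.12, -6.15, -3.19 and -2.06 in aged hCOL17A1, young hCOL17A1, aged WT and young WT, the second of these not well above background. No HFSC array overlapped an IFE array. It was 5.20 ± 0.57 higher in aHFSC than in IFE (limma, adjusted p = 0.00184, 4 of 4 pairs) and 4.49 ± 0.57 higher in tHFSC than in IFE (limma, adjusted p = 0.00349, 4 of 4 pairs). With normexp the differences were 2.97 and 2.34, both still called. Without the young hCOL17A1 IFE array the differences were 4.16 and 3.45, and both were still called. Its 5 nearest genes by the same measure were Rflnb (0.700), Nfatc1 (0.744), Fzd2 (0.758), Ptprk (0.773) and Sfrp1 (0.810).

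Gli3, which is processed into the main repressor, differed less. It read 0.72, 1.71 and 2.12 in aHFSC and 0.86, 1.90 and 2.61 in tHFSC, against 0.49, -1.25, 0.88 and 0.25 in aged hCOL17A1, young hCOL17A1, aged WT and young WT IFE. The young hCOL17A1 aHFSC and tHFSC arrays, the lowest of their states, lay below the aged WT IFE array, and the other 10 HFSC arrays lay above all IFE arrays. The difference was 1.59 ± 0.24 in aHFSC against IFE (limma, adjusted p = 0.00805, 4 of 4 pairs) and 1.75 ± 0.24 in tHFSC against IFE (limma, adjusted p = 0.00456, 4 of 4 pairs). Nearest to Gli3 were Snx18 (0.420), Tcf7l2 (0.457), Dcaf4 (0.465), Slc6a6 (0.472) and Tenm2 (0.477).

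Ptch1, the receptor and itself a target, read 0.24, 1.51 and 1.87 in aHFSC and -0.72, -0.58 and 0.89 in tHFSC by probe 1. Its IFE levels were -2.50, -3.31, -2.96 and -1.87 in aged hCOL17A1, young hCOL17A1, aged WT and young WT, below every HFSC array. The difference was 3.81 ± 0.38 in aHFSC against IFE (limma, adjusted p = 0.00121, 4 of 4 pairs) and 2.29 ± 0.38 in tHFSC against IFE (limma, adjusted p = 0.0109, 4 of 4 pairs). With normexp the differences were 2.63 and 1.32, both still called. The tHFSC call was lost without either the young hCOL17A1 or the aged WT IFE array (1.81, limma, adjusted p = 0.0723 and 0.072).

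Ptch1 probe 2, whose mean over the 16 arrays was almost the same, separated the groups differently. It read 0.20, 1.32 and 1.74 in aHFSC and -2.33, -0.67 and -0.47 in tHFSC, against -1.51, -1.32, -1.39 and -1.29 in aged hCOL17A1, young hCOL17A1, aged WT and young WT IFE. All aHFSC arrays lay above all others, whereas tHFSC and IFE overlapped. It was 2.35 ± 0.47 higher in aHFSC than in IFE (limma over all probes, adjusted p = 0.0322) and differed by 0.13 ± 0.47 in tHFSC against IFE (limma over all probes, adjusted p = 0.923), so both probes had aHFSC above IFE and only probe 1 had tHFSC above IFE. The genes nearest to Ptch1 probe 1 were Pxdn (0.660), Samd5 (0.663), Evl (0.742), Hoxb9 (0.757) and Lap3 (0.768).

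Hhip, the membrane-bound decoy that binds ligand, was above background in HFSC only by the probe used, whereas its other probe was also detected in 1 IFE array. By the probe used it read -5.00, -2.36 and -1.50 in aHFSC and -6.21, -1.24 and -0.45 in tHFSC, and was not well above background in either aged hCOL17A1 HFSC array. The highest value, of the young control tHFSC, is the one from the deposited table and has no flag. By that probe Hhip was not well above background in any IFE array. The readings were -4.03, -4.26, -4.37 and -5.71 in aged hCOL17A1, young hCOL17A1, aged WT and young WT. Of the 4 conditions that IFE shares, the tHFSC array was flagged well above background in 2 and the aHFSC array in 3. No fold difference is given, because a mean over these conditions would include aged hCOL17A1 HFSC readings that were not above background. Both HFSC states read above IFE in 3 of 4 pairs and below it in the aged hCOL17A1 pair.

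The fit passed Hhip in tHFSC against IFE (limma, adjusted p = 0.0499) and not in aHFSC against IFE (limma, adjusted p = 0.244). No size is given from the fit. The IFE readings of the probe used are not above background, and that probe passed the filter through HFSC arrays alone. The call held in 1 of 19 alternatives, the one without the aged hCOL17A1 tHFSC array. Nearest to Hhip were Slc36a4 (1.07), Lrrc3b (1.09), Klhl13 (1.10), Abhd12b (1.11) and Kif21b (1.19), none of them close beside its own SD of 1.78.

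Smo, the transducer, and Sufu, the negative regulator, did not pass the test between the cell types. Smo probe 1, the probe with the CA run, read 7.36, 7.58 and 7.79 in aHFSC and 7.58, 7.64 and 7.85 in tHFSC, against 7.85, 8.52, 7.56 and 7.59 in aged hCOL17A1, young hCOL17A1, aged WT and young WT IFE. Its whole range was 1.17 over the 16 arrays. The difference was -0.30 ± 0.13 in aHFSC against IFE and -0.21 ± 0.13 in tHFSC against IFE (limma, adjusted p = 0.263 and 0.411). The second became 0.04 under quantile normalization, and also on slide 2 alone, where aged HFSC were set against aged IFE. Smo probe 2, at chr6:29711225-29711284, read from -0.65 to 1.02 in aHFSC, from 0.22 to 1.07 in tHFSC and from 0.16 to 1.17 in IFE, with differences of -0.43 ± 0.35 and -0.03 ± 0.35 from IFE. Sufu read -1.16, 0.49 and 2.15 in aHFSC and -1.85, 1.06 and 2.42 in tHFSC, against -0.70, 0.26, -0.04 and -0.06 in aged hCOL17A1, young hCOL17A1, aged WT and young WT IFE. Its HFSC arrays spread on both sides of the IFE arrays, with differences of 0.49 ± 0.58 and 0.996 ± 0.58 (limma, adjusted p = 0.729 and 0.386). Sufu probe 2, at chr19:46558091-46558150, was above background on 12 of 16 arrays and gave -0.72 ± 0.95 and -0.68 ± 0.95, of the opposite sign.

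**Figure D3:**
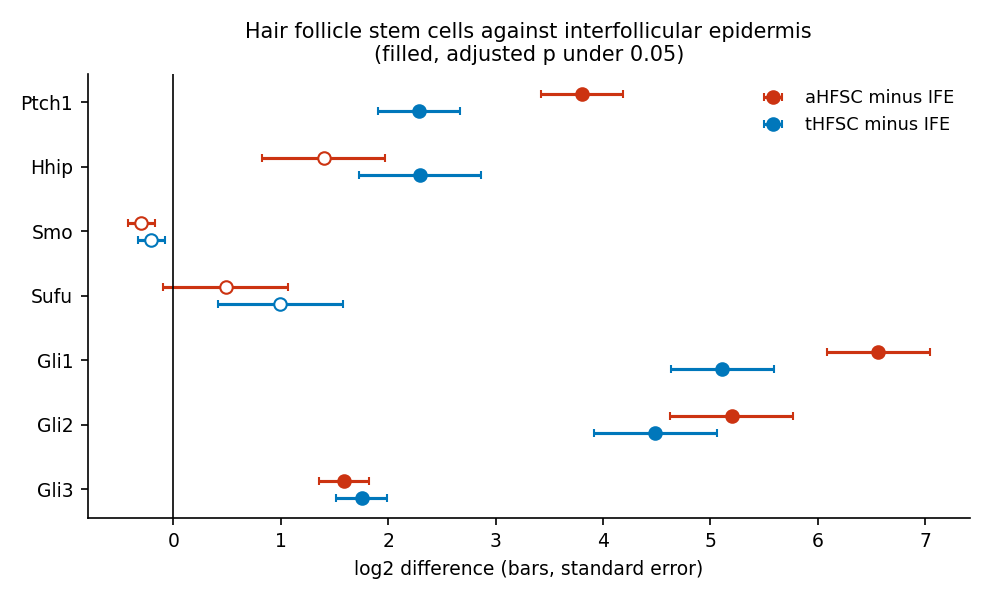
Fitted log2 difference of the 7 tested members (horizontal axis, bars are standard errors) in aHFSC minus IFE and in tHFSC minus IFE, filled where the adjusted p was under 0.05. Hhip is set against IFE readings that were not above background. Gli1 has the widest differences, 6.56 and 5.11, and Smo lies nearest to 0, at -0.30 and -0.21. All are by the probe used. Read from its other probe, Gli1 did not pass in either comparison and Ptch1 did not pass in tHFSC.

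Slide 2 alone holds the aged HFSC and all IFE arrays, and in a fit of that slide no member passed the test. The differences there set aged HFSC against aged IFE, and not cells of both ages as above. In aHFSC against IFE they were 6.90 for Gli1, 4.94 for Gli2, 1.35 for Gli3 and 3.81 for Ptch1 (limma, adjusted p = 0.0603, 0.166, 0.507 and 0.12). In tHFSC against IFE they were 5.49 for Gli1, 4.59 for Gli2, 1.64 for Gli3 and 2.09 for Ptch1. In that smaller fit 79 and 83 of all genes were called. Markers of other cells were set beside these values. Col1a2 was the 1 fibroblast marker of 5 measured that was called, higher by 2.21 in aHFSC and by 4.41 in tHFSC than in IFE (limma, adjusted p = 0.00415 and 0.000125). Pdgfra, Lum and Dpt did not pass the filter on dim probes. The summed level of the 5 ran from 76.4% to 174% of the array's 75th percentile in aHFSC and from 197% to 804% in tHFSC, against 44.2% to 75.2% in IFE. None of 6 markers of Langerhans, myeloid and T cells was called in either comparison, and their summed level was 155% to 963% in aHFSC and 213% to 770% in tHFSC, against 184% to 510% in IFE. Among the other lists, Hoxc13 (hair germ and matrix) was called higher in both comparisons. Mbp (Schwann and nerve) was called lower in both, and Ngfr of that list in tHFSC. Mitf (melanocyte) was called higher in tHFSC. Of 10 cell cycle markers, Rrm2 was called higher in aHFSC, and Ccna2, Mcm6 and Pcna lower in tHFSC. Of 5 basal keratinocyte markers, 5 were called lower in aHFSC and 3 in tHFSC, and of 7 markers of differentiating epidermis, 3 were called lower in each. No marker of the upper follicle, sebaceous gland or vessels was called. The part of these cells in the members' levels was not tested.

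Beyond the members, 46 of 47 other pathway genes were measured. In aHFSC against IFE 5 of them were called higher and 1 lower, where 1.64% and 2.68% of all genes were, with a median difference of 0.09. In tHFSC against IFE 5 were called higher and 1 lower, where 2.11% and 4.33% of all genes were, with a median of 0.16. In each comparison the 1 called lower was among 9 measured genes reported to respond to the pathway, of which 3 were called higher. By smallest p, the named genes in both comparisons were Sox9, Krt17, Gas1 and Mycn. Sox9, a bulge transcription factor, was 4.51 higher in aHFSC and 4.67 higher in tHFSC than in IFE. Krt17, a follicle keratin, was 2.41 and 2.02 higher. Gas1, a co-receptor that promotes ligand binding, was 2.30 and 2.36 higher, with its young control tHFSC value taken from the deposited table. Mycn, a growth regulator, was 7.17 and 4.52 higher (limma, adjusted p from 1.07e-05 to 0.00543 over these 8 values). Sox9 and Krt17 also mark follicle cells without regard to the pathway. Of the other co-receptors, Cdon and Boc differed from IFE by -0.19 and 0.44 in aHFSC and by 1.04 and 0.70 in tHFSC, and none of these passed.

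Between aHFSC and tHFSC no member was called, where 170 of 31527 genes (0.539%) were. The members' median difference was -0.09, equal to the median of all genes. At an unadjusted p under 0.05 were 2 of the 7 tested members, Ptch1 and Gli1, where 3977 of 31527 genes were. Ptch1 probe 1 read, in aHFSC and tHFSC, 1.82 and -0.55 in Col17a1cKO, 1.24 and -0.23 in aPKCcKO, 0.24 and -0.72 in young hCOL17A1, 1.78 and 0.89 in the young control, 0.29 and -0.65 in aged hCOL17A1 and 1.87 and -0.61 in aged WT. It was higher in aHFSC in 6 of 6 pairs, by 1.52 ± 0.33 (limma, adjusted p = 0.101). Ptch1 probe 2 was higher in 6 of 6 pairs too, by 2.22 ± 0.40, and was not called (limma over all probes, adjusted p = 0.0679), where 0.337% of all probes were. Its aHFSC and tHFSC arrays did not overlap, and the share of all probes without such overlap is not given. When the probes of a gene were averaged, Ptch1 was called at 1.87.

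Gli1 probe 1 read, in aHFSC and tHFSC, 3.36 and 1.44 in Col17a1cKO, 2.57 and 2.22 in aPKCcKO, 3.07 and 1.06 in young hCOL17A1, 3.24 and 1.65 in the young control, 2.46 and 2.47 in aged hCOL17A1 and 3.53 and 0.69 in aged WT. It was higher in aHFSC in 5 of 6 pairs, by 1.45 ± 0.41 (limma, adjusted p = 0.186). The aged hCOL17A1 pair differed by -0.01, and without its aHFSC array the fitted difference was 1.74. Gli1 probe 2 differed by 0.53 ± 0.43 (limma over all probes, adjusted p = 0.668). Over the 12 HFSC arrays the genes nearest to Gli1 probe 1 were Arhgap9 (0.229), Hmgb3 (0.300) and the histone genes H4c12 (0.347), H4c14 (0.383) and H4c11 (0.389), of which the H4 genes are near-identical copies that probes may not separate.

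The other members varied without a common direction. Gli2 differed by 0.71 ± 0.49 with 5 of 6 pairs higher in aHFSC, the widest in young hCOL17A1 (2.03). Hhip differed by -0.90 ± 0.49 with 4 of 6 pairs lower, from -2.93 in aged WT to 1.22 in aged hCOL17A1, where neither array was above background. Gli3, Smo and Sufu differed by -0.16 ± 0.20, -0.09 ± 0.11 and -0.51 ± 0.50, and Sufu ran from -2.40 to 1.41 across pairs (limma, adjusted p for these 5 members from 0.497 to 0.776).

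**Figure D4:**
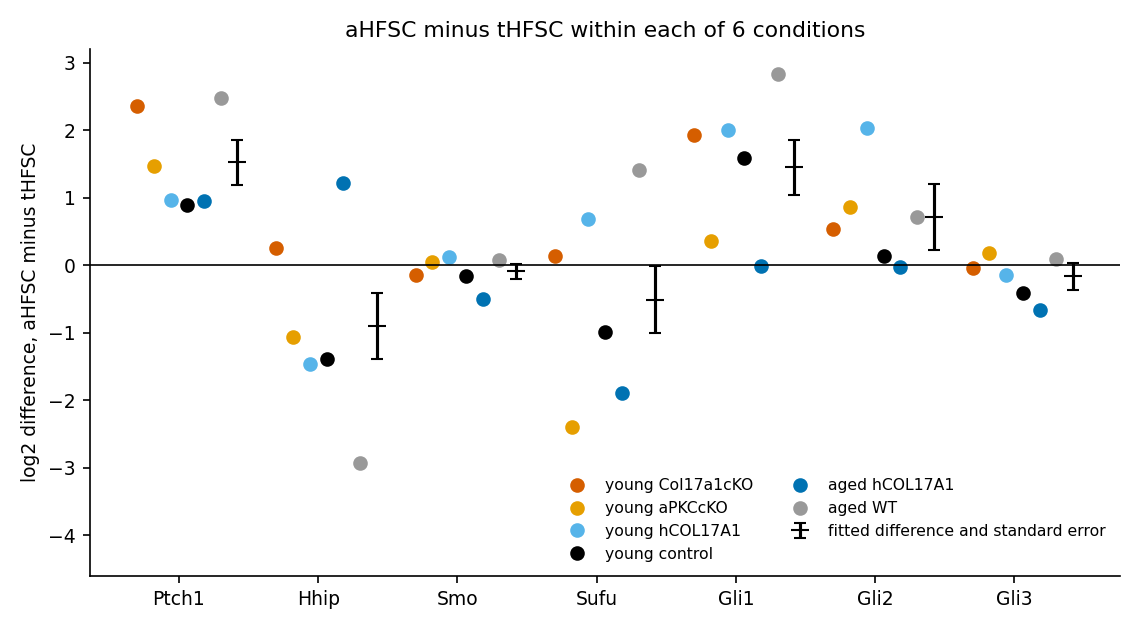
Difference between the aHFSC and the tHFSC array of each of 6 conditions (vertical axis, log2) for the 7 tested members, 1 point per condition, with the fitted difference and its standard error in black. Ptch1 is above 0 in all 6 conditions and Gli1 in 5, with the aged hCOL17A1 pair at -0.01.

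Of the other pathway genes, Foxm1, a cell cycle transcription factor reported to respond to the pathway, was called in aHFSC against tHFSC (2.69 ± 0.44, limma, adjusted p = 0.0431, higher in 6 of 6 pairs). Its aged hCOL17A1 pair had the smallest difference, 0.14. The cell cycle markers moved with it, 5 of 10 called higher in aHFSC (Ccna2, Mcm4, Mcm6, Pcna and Rrm2), with summed levels of 11512% to 18877% of the array's 75th percentile in aHFSC, against 4384% to 6633% in tHFSC. Col1a2 was lower in aHFSC than in tHFSC by 2.20 (limma, adjusted p = 0.033). Such calls rest on few arrays: with any 1 HFSC array left out, 0 to 95 of all genes were called in aHFSC against tHFSC. The part of these markers in the levels of Ptch1 and Gli1 was not tested.

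In the fit with an age term on the aHFSC shift, which left 5 residual degrees of freedom, no member passed the test for a difference with age. The aged minus young difference in the shift ran from -0.55 ± 1.08 for Gli2 to 0.41 ± 1.10 for Sufu (limma, smallest adjusted p = 0.939), and 0 of all genes passed, with 1957 at an unadjusted p under 0.05. With 1 array fewer these values moved: the age difference of Hhip, 0.06 with all arrays, was 2.13 without either aged WT array and -2.02 without either aged hCOL17A1 array. In the same order it was -1.48 and 1.37 for Gli1, -1.25 and 2.06 for Sufu and -0.48 and 1.06 for Ptch1, and none passed. For Ptch1 the shift was 1.72 ± 0.59 in aged and 1.42 ± 0.42 in young conditions, and for Gli1 it was 1.41 ± 0.75 and 1.47 ± 0.53.

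Across genotype and age no member passed the test in any of 7 comparisons, and neither did any gene (0%). At an unadjusted p under 0.05, between 1083 genes (aPKCcKO against control) and 3789 genes (hCOL17A1 against WT in aged HFSC) were below the mark. Each comparison rests on 2 array pairs. On simulated data the fit recovered 17% of changes of log2 2 in Col17a1cKO against control HFSC, so most changes of that size would be missed there. In Col17a1cKO against control HFSC the members' differences ran from -0.70 ± 0.57 (Ptch1) to 0.08 ± 0.19 (Smo), with Gli1 at -0.04 ± 0.71. In aPKCcKO against control HFSC they ran from -0.83 ± 0.57 (Ptch1) to 0.14 ± 0.19 (Smo), with Gli1 at -0.05 ± 0.71.

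In hCOL17A1 against control in young HFSC, 3 of the 7 tested members had an unadjusted p under 0.05, where 2142 of 31527 genes did. They were Sufu, Ptch1 and Gli3. Sufu read -1.16 and -1.85 in hCOL17A1 aHFSC and tHFSC, against 0.50 and 1.49 in control aHFSC and tHFSC, a difference of -2.50 ± 0.86 (limma, adjusted p = 0.634, lower in 2 of 2 pairs). The other Sufu probe gave the opposite sign, 1.16 ± 1.41. Ptch1 differed by -1.57 ± 0.57 and Gli3 by -1.11 ± 0.35, each lower in 2 of 2 pairs (limma, adjusted p = 0.647 and 0.575). Gli1 differed by -0.38 ± 0.71. In the same comparison no marker was called, but bulge markers were below 0 in 9 of 9 (median -0.66), markers of differentiating epidermis above 0 in 7 of 7 (median 1.25), and Langerhans, myeloid and T cell markers above 0 in 5 of 6 (median 1.18), against a median of 0.01 over all genes. Their part in the members' differences was not tested. The control mice had received RU486 and no RU486 is stated for the transgenic mice, so transgene and RU486 cannot be told apart here.

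In aged HFSC, Hhip read -5.00 and -6.21 in hCOL17A1 aHFSC and tHFSC, neither well above background, against -4.10 and -1.17 in WT aHFSC and tHFSC. The difference was -2.97 ± 0.84 (limma, adjusted p = 0.282). These 2 hCOL17A1 arrays had the fewest probes above background of all, as given above, and the part of this was not tested. Gli1, by contrast, read 2.46 and 2.47 against 3.53 and 0.69 in WT aHFSC and tHFSC, with a difference of 0.36 ± 0.71. Beside these, bulge markers were above 0 in 8 of 9 (median 0.49) and markers of differentiating epidermis below 0 in 7 of 7 (median -1.90), none called, against a median of -0.23 over all genes. In IFE, hCOL17A1 against WT gave -2.01 ± 0.84 for Gli2, -0.94 ± 0.35 for Gli3 and 0.61 ± 0.19 for Smo (limma, adjusted p = 0.848 each), with the young hCOL17A1 array at the extreme for all 3. Bulge markers were above 0 in 7 of 9 there (median 1.08), none called.

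With age, WT HFSC against young control HFSC gave differences from -1.49 ± 0.84 (Hhip) to 0.45 ± 0.86 (Sufu), with Gli1 at -0.33 ± 0.71 (limma, adjusted p = 0.999 for all). Here age, slide and RU486 cannot be told apart. In IFE, which lay on 1 slide, Gli3 was 1.19 ± 0.35 higher in aged than in young cells (0.49 and 0.88 in aged hCOL17A1 and WT, against -1.25 and 0.25 in young hCOL17A1 and WT), which failed the correction (limma, adjusted p = 0.751). Markers of differentiating epidermis were below 0 in 6 of 7 there (median -1.23), none called.

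**Figure D5:**
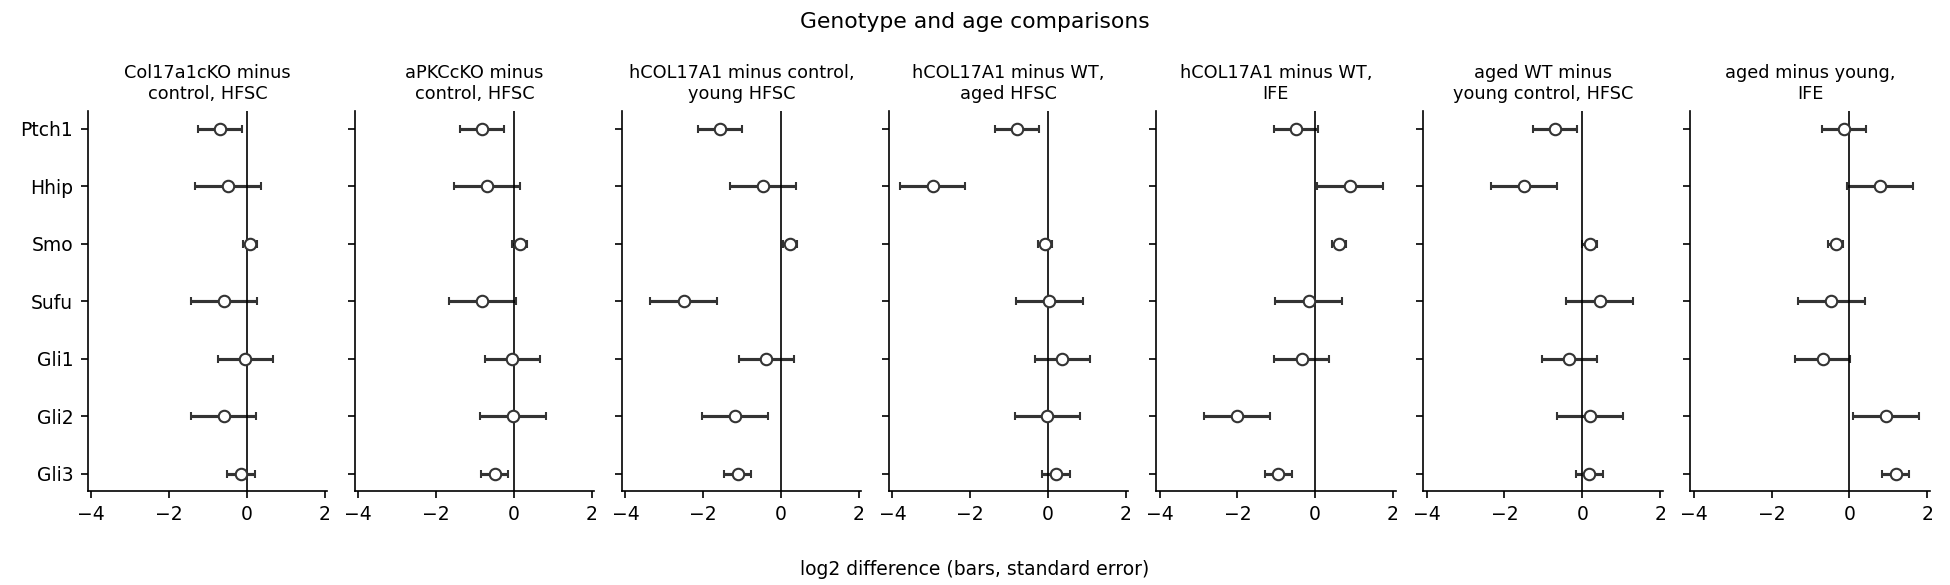
Fitted log2 difference (horizontal axis, bars are standard errors) of the 7 tested members in 7 genotype and age comparisons. Open points mark values that did not pass the test, and the points farthest from 0 are Hhip in aged hCOL17A1 HFSC (-2.97), where both hCOL17A1 arrays were not above background, and Sufu in young hCOL17A1 HFSC (-2.50), where its other probe gave 1.16.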

How the data were processed

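RNA of sorted cells was amplified as cDNA and labelled with Cy3, per the labels' protocols. Per the file headers, the authors deposited scanner output of Agilent Feature Extraction 11.5.1.1, in which the processed signal is a linear, background-subtracted intensity. Their deposited value table holds log2 values that equal log2 of that signal minus the array's 75th percentile. The same quantity was computed here, with outlier spots left out and spots of a probe averaged. Probes well above background on at least 2 of 16 arrays (49792 of 55681) were kept, and a gene was read from its probe with the highest mean (31527 genes). One scanner file ended early, and its 9264 missing probes came from the value table without flags. No spot was saturated, and the number of arrays limits the precision.

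One limma fit (3.58.1, R 4.3.3; lmFit, eBayes with a trend, two-sided, Benjamini-Hochberg over all genes, threshold 0.05) had terms for 6 HFSC conditions, a common aHFSC shift, and IFE with its age and transgene, leaving 6 residual degrees of freedom. It was tested on simulated data in which 200 of 31527 genes were changed. Of changes of log2 2, it recovered 51% in tHFSC against IFE, 68% in aHFSC against tHFSC and 17% in Col17a1cKO against control HFSC. Of changes of log2 4 it recovered 87%, 93% and 66% in the same order. Members and gene lists were chosen with earlier results of these data known. Named were all members, other listed pathway genes past the threshold (up to 4 a comparison, by smallest p), and the 5 genes nearest to each called member by root mean square difference of centred levels. Cdon, Boc, Ihh and marker genes were named after their values were seen. Alternatives covered background correction, normalization, filters, probe choice, slide and each array left out.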

Additional observations from a re-analysis of the deposited data

How the results depend on the processing

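In tHFSC against IFE, 5 members were called, Hhip included. The count was 2 when a probe had to be above background on each of the 16 arrays (which leaves 5 members and reads Gli1 from its other probe), 3 with the mean of a gene's probes, 0 with slide 2 only, 3 without the aged hCOL17A1 aHFSC and young hCOL17A1 IFE arrays, and 3 to 5 when each array was left out in turn. With the other probe of the 5 members that have 2, an alternative chosen after seeing the data, it was 2. In aHFSC against IFE, 4 members were called, 2 under that stricter filter, 0 with slide 2 only, and 4 with each array left out. Read from its other probe with all arrays, Gli1 was not called there, at 1.06. In aHFSC against tHFSC the count of 0 became 1 with the mean of a gene's probes. It stayed 0 in the other alternatives, and so did the counts for genotype, age and the age difference of the aHFSC shift. Over all genes, the calls in aHFSC against IFE were 1361, 2257 with normexp, 980 under the stricter filter, 799 without the aged hCOL17A1 aHFSC and young hCOL17A1 IFE arrays, 391 with the arrays of the comparison alone and 525 to 1572 with each array left out. In tHFSC against IFE they were 2031, 804 with the arrays of the comparison alone and 830 to 2233 with each array left out. In aHFSC against tHFSC they were 170, 312 with slide as a block, 111 without the same pair of arrays, 14 without a trend in eBayes, 0 on either slide alone and 0 to 95 with each array left out. Of 61 uncalled values, 36 changed sign in at least 1 alternative and 1 was ever called. No called member reversed. Quantile normalization moved the median of all genes by over 0.1 in aHFSC against IFE (0.15), hCOL17A1 against WT in aged HFSC (0.21) and hCOL17A1 against WT in IFE (-0.12), and normexp moved it by 0.24 in the second of these. Of the 42 tests of whether an effect differed between groups, 0 passed (limma, smallest adjusted p = 0.395) and 4 had an unadjusted p under 0.05. The block for slide was not run for genotype and age, nor single slides for comparisons that span both. No paired analysis was possible by replicate number because the labels number no replicates and each group has 1 array, and the fit itself pairs the aHFSC and tHFSC arrays of a condition. Normexp kept the 4 calls in each HFSC against IFE comparison but lowered the differences of Gli1, Gli2 and Ptch1, as given with them. Dim readings limit what the signal can show. They are Shh throughout, Hhip by the probe used in IFE and aged hCOL17A1 HFSC, and single IFE arrays of Gli1 and Gli2.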
